A study of Mus musculus with 24 samples.

Results

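The comparison set 2 libraries of mouse pancreatic ductal adenocarcinoma cells that expressed p53 with a mutated first transactivation domain (TAD1m) against 2 libraries of the same cells that expressed p53 with a mutated second transactivation domain (TAD2m). They are 4 of the 24 RNA-seq libraries of the series, and their groups come from the labels. Every gene that passed a filter on low counts was compared, 15075 of the 55401 genes in the table. The cells are the KPnull line, the p53-ON system of the study, each carrying a doxycycline-inducible vector. All 10 KPnull libraries were taken as treated with 1 µg/ml doxycycline for 48 hours before harvest, those with the empty vector included, although the series text speaks of cells with or without the drug. The other 3 KPnull groups held 2 libraries each and carried the empty vector without a cDNA (vector), wild-type p53 (p53WT) or p53 with both domains mutated (TAD12m); all 10 libraries set the spread between replicates. The labels name neither the mutated residues nor the species of the p53 cDNA, nor whether a group is 1 clone. They do not say that replicates are separate cultures, so p-values rest on differences between libraries that may be only technical.

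p53, the product of Trp53, is a transcription factor that binds DNA response elements near its target genes and recruits coactivators through a pair of adjacent acidic transactivation domains at its N terminus. The first domain also holds the main contact with MDM2, the ubiquitin ligase that p53 itself induces and that marks p53 for degradation. In mouse models the first domain is known for its part in the strong induction of Cdkn1a and other targets after acute DNA damage. Loss of both domains leaves p53 largely without transactivation in such models. TAD12m was not tested against the vector here. Some genes, Apaf1 among them, lay above the vector with TAD12m, and others, Ces2g among them, lay below it.

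Trp53 (chr11:69580359-69591873, + strand, all gene coordinates in mm10) checked the labels only for the presence of a p53 cDNA. It was at 622 and 654 CPM with TAD1m, 529.9 and 525 with TAD2m, 649 and 686 with p53WT, 6.12 and 4.54 with the empty vector and 552 and 579.7 with TAD12m. CPM, the usual unit of depth-scaled counts, was taken on the TMM-scaled library total. All libraries with a p53 cDNA were far above the empty vector. Counts per gene do not show which domain of a cDNA is mutated, so the TAD1m and TAD2m labels were not checked. The TAD1m libraries were above the TAD2m libraries, with a log2 difference of 0.28 ± 0.06 (SE, adjusted p = 0.00242), and without TAD1m replicate 2 the difference was 0.23 (adjusted p = 0.0506). The counts give RNA only, and p53 protein was not measured here.

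The 4 libraries held between 13662715 and 17093207 counts. Mitochondrial genes took 2.49% and 2.51% of counts with TAD1m and 3.03% and 3.09% with TAD2m, and the 10 most abundant genes took 4.52% and 4.67% against 5.85% and 5.78%. TMM scaling factors were 1.013 and 1.015 with TAD1m and 0.983 and 0.979 with TAD2m. These quantities moved with the group, and their part in the results was not tested. Keratin genes of ductal cells were abundant. Of the 10 ductal markers, Epcam was at 0.150 CPM or less and Cldn4 at 0.208 CPM or less in all 4 libraries. Sox9 was at 1.33 to 2.02 CPM with TAD1m and 0.824 to 0.832 with TAD2m. Of 14 fibroblast markers, all were under 1 CPM in every library. On the first principal component of all 10 libraries (58.2% of variance), TAD2m lay at -39.5 and -38.0, beside p53WT at -41.6 and -39.1, and TAD1m lay at -1.41 and -3.51. On the second component (19.3%), TAD1m stood apart from every other library at -39.7 and -40.5.

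Of the 15075 genes, 2737 (18.2%) were higher with TAD1m and 2622 (17.4%) were lower, 35.5% in all, at an adjusted p under 0.05 in edgeR's quasi-likelihood test. These percentages are the background for every count of this comparison. Against the vector, 19% of genes were higher and 17.5% lower with TAD1m, and 24.9% and 24.2% with TAD2m. The median log2 difference of all genes, TAD1m minus TAD2m, was 0.03. The size was mostly modest: the median absolute log2 difference of the called genes was 0.47. A difference of at least 1 on the log2 scale was called for 318 genes (2.11%) that were higher and 511 (3.39%) that were lower, 5.5% in all. No called gene had overlapping libraries, and over all genes 71.7% had none. The higher count was 1822 without TAD1m replicate 1 and 1795 without TAD2m replicate 1. With no scaling beyond the total count, 59.5% of calls were higher in place of 51.1%, and the median of all genes was 0.07. In these bulk libraries, fewer cells of a kind and less RNA per cell cannot be told apart.

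**Figure D1:**
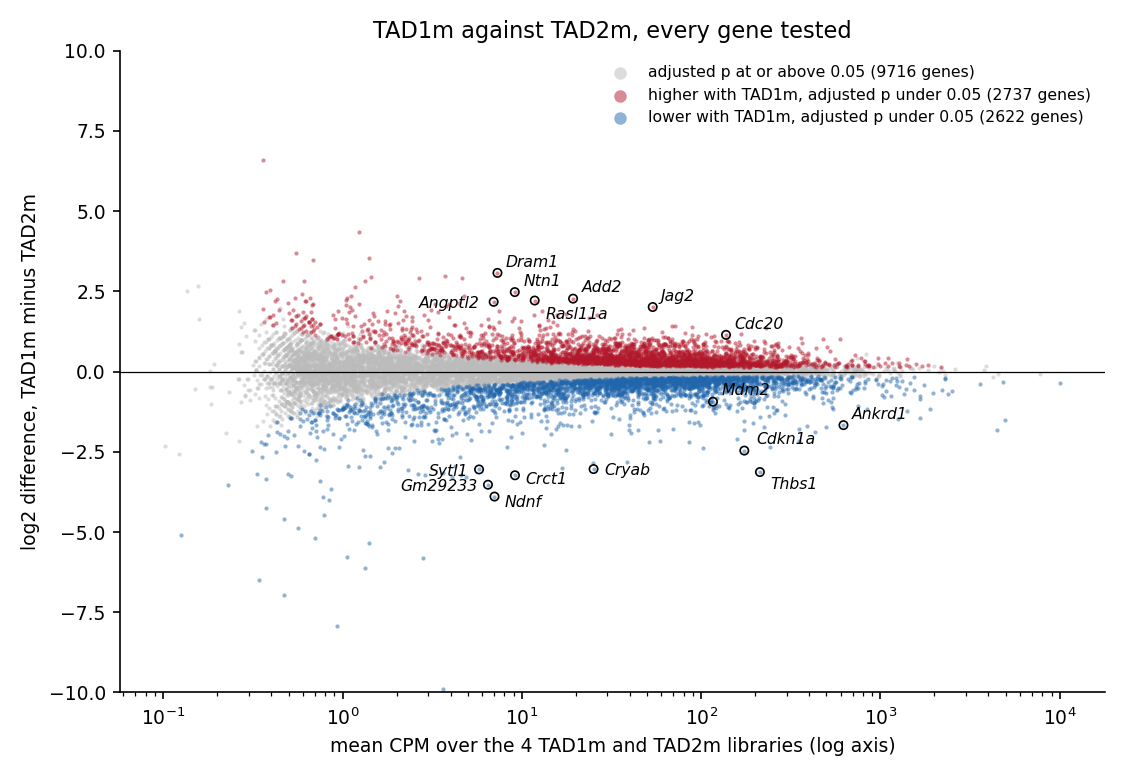
Each point is a gene, with its mean CPM over the 4 TAD1m and TAD2m libraries on a log axis and its log2 difference, TAD1m minus TAD2m, on the other; red and blue mark genes higher and lower with TAD1m at an adjusted p under 0.05. The named genes with the lowest values reach further from 0 (Ndnf at -3.90) than the highest ones (Dram1 at 3.08); differences of genes with almost no counts in 1 group have no fixed size.

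Genes that feed back on p53 came first. Mdm2 (chr10:117688875-117710758, - strand), the ligase that degrades p53, was at 82.6 and 76.9 CPM with TAD1m, 150.2 and 156 with TAD2m, 267 and 272 with p53WT, 56.4 and 56.6 with the empty vector and 56.6 and 50.8 with TAD12m. Both TAD1m libraries lay between the empty vector and TAD2m, and TAD2m lay below both p53WT libraries. The log2 difference was -0.94 ± 0.06 (SE, adjusted p = 1.06e-08); against the vector, TAD1m gave 0.50 ± 0.07 (SE, adjusted p = 1.93e-05) and TAD2m 1.44 ± 0.07 (SE, adjusted p = 3.52e-11). Ccng1 (chr11:40748552-40755311, - strand), the p53-induced cyclin G1, was at 312 and 289 CPM with TAD1m, 526 and 547 with TAD2m, 624 and 651 with p53WT, 82.99 and 78.5 with the empty vector and 88.4 and 70.9 with TAD12m. TAD1m was in the middle of the range here too, with a difference of -0.84 ± 0.08 (SE, adjusted p = 1.6e-06), and stayed well above the vector (1.89 ± 0.08 SE, adjusted p = 5.97e-10). Trp53inp1, a p53-induced nuclear protein that acts in cell death and autophagy, was at 51.9 and 54.5 CPM with TAD1m, 119 and 125 with TAD2m, 129 and 133 with p53WT, 6.33 and 6.51 with the empty vector and 9.12 and 7.303 with TAD12m. The mutants differed by -1.20 ± 0.07 (SE, adjusted p = 2.59e-09), and both were far above the vector. Of the 10 feedback genes, these 3 were lower with TAD1m, Usp7, the deubiquitinase of p53 and MDM2, was higher (0.23 ± 0.06 SE, adjusted p = 0.00561), and the other 6 did not. The list median was -0.04. The Usp7 call was lost without TAD1m replicate 1 or TAD2m replicate 1, which left 0 members higher.

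The promoters of Mdm2 and Ccng1 are shown because both hold a p53 consensus half-site and both genes lay between the vector and TAD2m with TAD1m. The bases before the start, up to 250, are from RefSeq (GRCm38.p6), Mdm2 at chr10:117710759-117711008 (250 bases) on the - strand and Ccng1 at chr11:40755312-40755536 (225 bases) on the - strand, with the half-site in capitals.
Mdm2: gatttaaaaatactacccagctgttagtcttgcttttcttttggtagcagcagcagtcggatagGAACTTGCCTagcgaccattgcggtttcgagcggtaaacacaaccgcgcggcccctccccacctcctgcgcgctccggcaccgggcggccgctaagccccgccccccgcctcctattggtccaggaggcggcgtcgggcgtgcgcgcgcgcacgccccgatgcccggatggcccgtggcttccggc
Ccng1: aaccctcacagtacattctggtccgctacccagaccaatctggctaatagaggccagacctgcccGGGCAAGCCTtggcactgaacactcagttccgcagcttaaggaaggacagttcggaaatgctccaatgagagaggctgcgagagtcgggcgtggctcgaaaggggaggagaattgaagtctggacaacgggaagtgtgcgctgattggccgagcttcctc
The first base of the match is at position -186 in Mdm2 and -185 in Ccng1, counted from the start site. Over windows of 300 bases, from 250 before to 50 after the start and on both strands, 4 of 9 feedback genes (44.4%) and 6.75% of all 10284 tested genes with a window held such a half-site. The share was 2 of 12 for the arrest targets below, 4 of 12 for apoptosis, 0 of 17 for metabolism, stress and repair, and 1 of 17 for the tumour suppression list. No half-site was in the Cdkn1a window. A match is a description of letters, and binding was not tested.

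Among targets that stop the cell cycle, Cdkn1a (chr17:29093781-29100727, + strand), which encodes the cyclin-dependent kinase inhibitor p21, had the widest gap. It was at 54.4 and 52.5 CPM with TAD1m, 299 and 290.2 with TAD2m, 401 and 358 with p53WT, 38.7 and 47.5 with the empty vector and 32.6 and 32.6 with TAD12m. The TAD1m libraries were close to the vector and the TAD2m libraries were several-fold higher, with a difference of -2.46 ± 0.08 (SE, adjusted p = 6.71e-12), which is 5.51-fold lower with TAD1m. Against the vector, TAD1m gave 0.32 ± 0.09 (SE, adjusted p = 0.00929) and TAD2m 2.78 ± 0.08 (SE, adjusted p = 6.93e-13); the TAD1m call was lost without TAD1m replicate 1 (0.28, adjusted p = 0.0875) or vector replicate 1 (0.16, adjusted p = 0.199). Of its exonic bases, 12.5% overlap 1700023B13Rik, and reads of both strands were counted. Btg2, an antiproliferative p53 target, was at 27.98 and 28.1 CPM with TAD1m and 62.02 and 65.3 with TAD2m, and at 80.2 and 88.9 CPM with p53WT, 13.1 and 14.1 with the empty vector and 13.6 and 13.7 with TAD12m. TAD1m again lay between vector and TAD2m (-1.18 ± 0.08 SE, adjusted p = 7.21e-09). Plk2, a polo-like kinase induced by stress, was at 125 and 125 CPM with TAD1m and 264 and 272 with TAD2m, against 109 and 108 with the vector (-1.10 ± 0.05 SE, adjusted p = 2.13e-10). E2f7, a repressor of E2F target genes, went the other way, at 50.4 and 45.98 CPM with TAD1m and 22.9 and 23.1 with TAD2m, and at 22.3 and 24.4 CPM with p53WT, 38.9 and 40.6 with the empty vector and 47.1 and 44.3 with TAD12m (1.07 ± 0.08 SE, adjusted p = 5.2e-08). Of the 12 arrest genes tested, 5 were lower (Cdkn1a, Btg2, Plk2, Plk3 and Ccng1), 2 higher (E2f7 and Sfn) and 5 not called, with a median of -0.21. With DESeq2, an alternative test, the higher count was 1. The higher count was 1 without TAD1m replicate 1, TAD2m replicate 1 or TAD2m replicate 2.

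**Figure D2:**
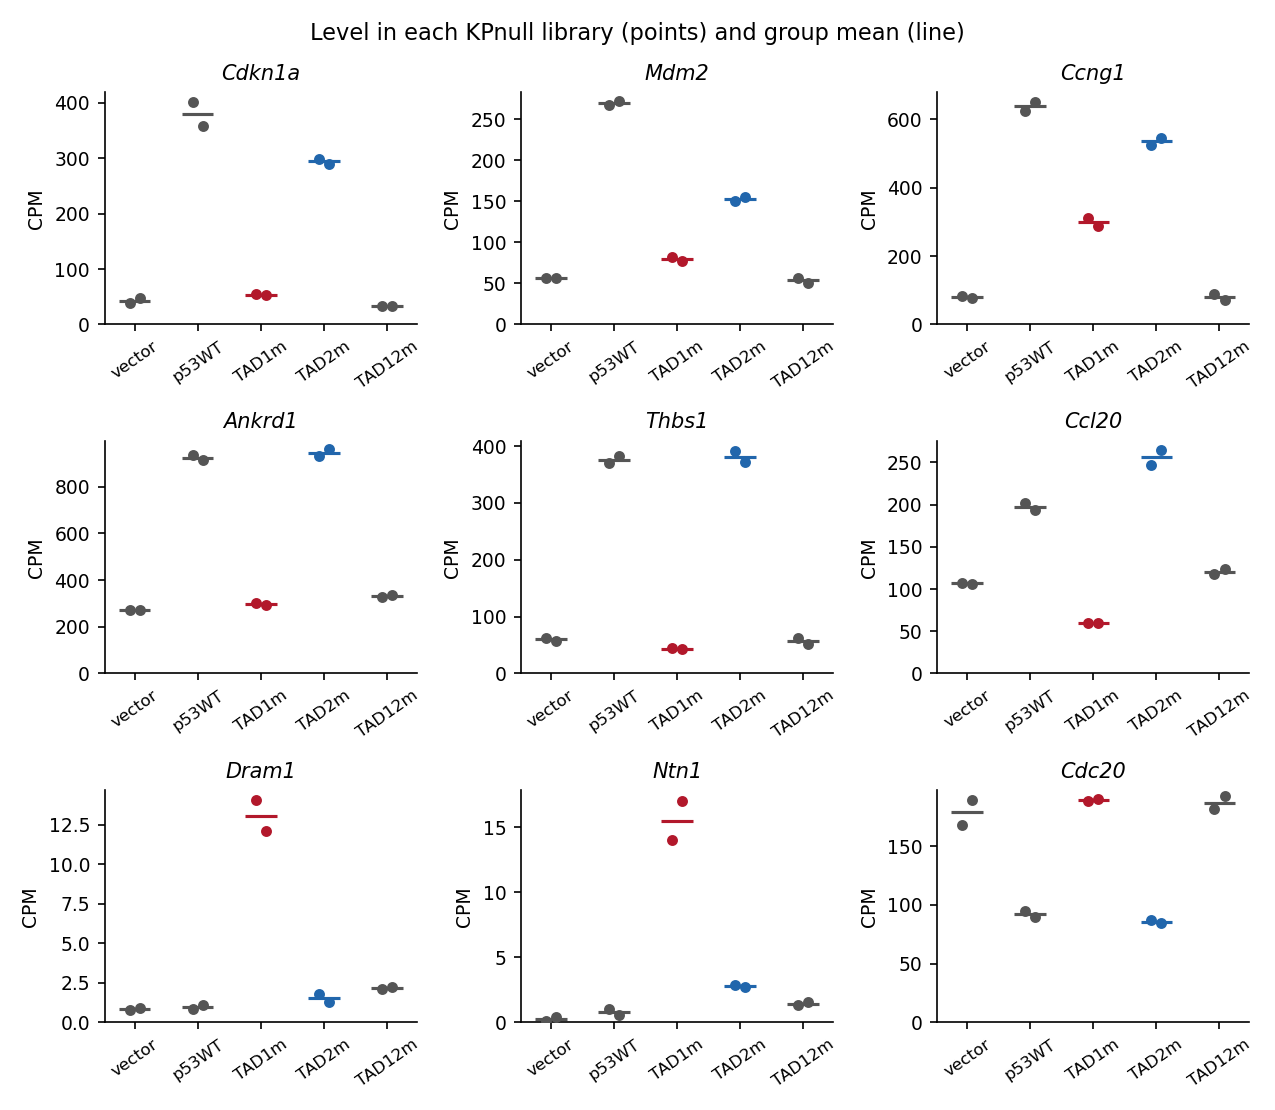
CPM of 9 genes in each of the 10 KPnull libraries (points, 2 per group) with the group mean as a line; every axis starts at 0. TAD1m (red) lies near the vector for Cdkn1a, Ankrd1, Thbs1 and Cdc20 and between vector and TAD2m (blue) for Mdm2 and Ccng1. TAD1m is the lowest group for Ccl20, and for Dram1 and Ntn1 it is the highest.

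Targets that act in cell death split in both directions. Of 16 tested, 10 were lower with TAD1m, 4 higher and 2 not called, and the median was -0.24. Without TAD1m replicate 1 the lower count was 6. Pmaip1, which encodes the BH3-only protein NOXA, was at 138 and 129 CPM with TAD1m, 234 and 251 with TAD2m, 229.5 and 226 with p53WT, 139.5 and 136 with the empty vector and 129 and 121 with TAD12m. TAD1m overlapped the vector and TAD2m was close to p53WT (-0.86 ± 0.06 SE, adjusted p = 1.46e-08). Apaf1, the scaffold of the apoptosome, was at 114 and 113 CPM with TAD1m, 66.8 and 65.8 with TAD2m, 55.04 and 56.9 with p53WT, 29.1 and 28.003 with the empty vector and 57.5 and 52.3 with TAD12m. It was highest with TAD1m (0.78 ± 0.06 SE, adjusted p = 9.89e-08), while both mutants were above the vector (1.99 ± 0.07 SE, adjusted p = 2.41e-12, and 1.21 ± 0.07 SE, adjusted p = 6.37e-10). Siva1, a pro-apoptotic adaptor, was at 54.4 and 52.8 CPM with TAD1m and 32.1 and 30.6 with TAD2m, and at 35.1 and 34.2 CPM with p53WT, 25.98 and 31.5 with the empty vector and 22.9 and 32.05 with TAD12m (0.77 ± 0.13 SE, adjusted p = 0.000765). TAD1m was above all other groups.

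Bax, the pore-forming BCL2 family member, was higher by 0.35 ± 0.07 (SE, adjusted p = 0.00136) and Fas, the death receptor, lower by -0.56 ± 0.14 (SE, adjusted p = 0.00462). Bbc3, which encodes PUMA, had a difference of 0.12 ± 0.28 (SE, adjusted p = 0.78) and did not pass. Against the vector, 11 of the 16 rose with TAD1m and 13 with TAD2m (background 19% and 24.9%, or 36.4% and 49.1% in either direction), with medians of 0.65 for TAD1m and 0.77 for TAD2m.

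Of 21 targets in metabolism, stress and repair, 13 were lower with TAD1m, 4 higher and 4 not called, with a median of -0.37. With DESeq2 the higher count was 2. The higher count was 2 without any 1 of the 4 libraries. Dcxr, a carbonyl and xylulose reductase, was at 8.79 and 7.55 CPM with TAD1m, 25.99 and 25.8 with TAD2m, 45.7 and 35.1 with p53WT, 1.28 and 2.23 with the empty vector and 0.686 and 0.545 with TAD12m. Its order was p53WT, TAD2m, TAD1m, vector, with a difference of -1.66 ± 0.15 (SE, adjusted p = 9.42e-07). Ephx1, a microsomal epoxide hydrolase, was at 112 and 119 CPM with TAD1m and 204 and 206 with TAD2m, and at 244 and 261 CPM with p53WT, 58.2 and 58.04 with the empty vector and 44.4 and 39.5 with TAD12m, with TAD1m midway (-0.82 ± 0.06 SE, adjusted p = 4.45e-08). Sesn2, a stress-induced regulator of mTORC1 signalling, was at 23.1 and 22.3 CPM with TAD1m and 39.6 and 36.01 with TAD2m, with 11.1 and 13.3 in the vector libraries (-0.74 ± 0.09 SE, adjusted p = 9.67e-06). Gls2, the liver-type glutaminase, was higher, at 17.1 and 16.9 CPM with TAD1m and 8.59 and 8.98 with TAD2m, and at 8.01 and 9.23 CPM with p53WT, 11.6 and 9.47 with the empty vector and 9.49 and 9.59 with TAD12m (0.95 ± 0.12 SE, adjusted p = 1.46e-05). Every library of the other 4 groups lay below both TAD1m libraries. Tap1, a peptide transporter of the MHC class I pathway, was at 7.11 and 6.41 CPM with TAD1m, 13.1 and 12.8 with TAD2m, 13.6 and 12.7 with p53WT, 0 and 0.131 with the empty vector and 0.105 and 0.327 with TAD12m (-0.94 ± 0.16 SE, adjusted p = 0.000196). The vector libraries together held 2 counts, and 7.18% of its exonic bases overlap Psmb9.

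A list of 18 targets linked to tumour suppression outside arrest and death comes from mouse studies of transactivation mutants. A rise of its members with such mutants may therefore not be independent of how the list was chosen. Against the vector, 17 rose with TAD1m and 18 with TAD2m (background 19% and 24.9%), with medians of 2.05 for TAD1m and 2.19 for TAD2m. Between the mutants, 4 were higher with TAD1m, 6 lower and 8 not called, and the median was 0.09. Crip2, a LIM-domain protein, was at 204 and 200.1 CPM with TAD1m, 118 and 114 with TAD2m, 109 and 101 with p53WT, 10.9 and 13.02 with the empty vector and 25.2 and 29.4 with TAD12m. TAD1m was above TAD2m and p53WT (0.80 ± 0.07 SE, adjusted p = 2.77e-07). Def6, a guanine nucleotide exchange factor, was at 18.4 and 17.6 CPM with TAD1m and 7.55 and 7.19 with TAD2m, and at 9.52 and 4.58 CPM with p53WT, 1.17 and 2.17 with the empty vector and 3.27 and 4.197 with TAD12m (1.29 ± 0.27 SE, adjusted p = 0.00575); the call was lost without TAD2m replicate 2 (1.25, adjusted p = 0.0546). Of its exonic bases, 17.1% overlap Gm49874. Phlda3, an inhibitor of AKT at the membrane, was at 39.8 and 40.8 CPM with TAD1m and 68.95 and 66.6 with TAD2m (-0.75 ± 0.09 SE, adjusted p = 8.19e-06), and the repair nuclease gene Ercc5 at 40.8 and 40.7 CPM with TAD1m and 59.8 and 62.7 with TAD2m (-0.59 ± 0.07 SE, adjusted p = 6.87e-06). With the vector they were at 20.2 and 21.5 CPM (Phlda3) and 18.4 and 19.3 CPM (Ercc5), below every TAD1m and TAD2m library. Zmat3, an RNA-binding p53 target, differed by -0.06 ± 0.05 (SE, adjusted p = 0.417) and did not pass.

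Genes of the dividing cell were higher with TAD1m almost throughout. Of 40 genes of G2/M and mitosis, 40 were higher (background 18.2%), with a median of 0.90 and a range of 0.55 to 1.37. Of 45 genes of S phase and DNA replication, 43 were higher and 0 lower, with a median of 0.73; Ccne1 (0.19 ± 0.11 SE, adjusted p = 0.184) and Pold1 (0.75 ± 0.24 SE, adjusted p = 0.0527) did not pass. Cenpe, a mitotic kinesin of the kinetochore, was at 335 and 327 CPM with TAD1m, 130.1 and 127 with TAD2m, 109.9 and 132 with p53WT, 280.4 and 275 with the empty vector and 319 and 290.5 with TAD12m. The TAD2m and p53WT libraries were below those of the other 3 groups, with a difference of 1.37 ± 0.07 (SE, adjusted p = 9.83e-10). Cdc20, the activator of the anaphase-promoting complex, was at 188 and 191 CPM with TAD1m, 87.04 and 84.3 with TAD2m, 95.2 and 90.01 with p53WT, 168 and 189.8 with the empty vector and 182 and 192 with TAD12m. TAD1m did not differ from the vector past the threshold (0.08 ± 0.06 SE, adjusted p = 0.336), and TAD2m was lower (-1.06 ± 0.07 SE, adjusted p = 1.5e-09).

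Hmmr, a spindle protein and hyaluronan receptor, was at 154 and 138 CPM with TAD1m and 64.2 and 66.8 with TAD2m (1.16 ± 0.08 SE, adjusted p = 1.4e-08), and Cdc25c, the phosphatase that activates CDK1, at 37.5 and 36.1 CPM with TAD1m and 16.3 and 17.7 with TAD2m (1.12 ± 0.09 SE, adjusted p = 7.29e-08). Rrm2, the regulated subunit of ribonucleotide reductase, was at 496 and 478 CPM with TAD1m, 235 and 233 with TAD2m, 231 and 234 with p53WT, 429 and 431 with the empty vector and 469 and 455 with TAD12m (1.06 ± 0.05 SE, adjusted p = 2.13e-10). It showed the same split of the groups. Uhrf1, which maintains DNA methylation at replication forks, was at 261 and 255 CPM with TAD1m and 135 and 134 with TAD2m, with 264 and 283 in the vector libraries (0.94 ± 0.06 SE, adjusted p = 5.77e-09). Chaf1b, a chromatin assembly factor subunit, differed by 0.92 and Gins1, of the replicative helicase, by 0.94. Against the vector the G2/M medians were -0.20 for TAD1m and -1.11 for TAD2m, with 22 and 40 of the 40 genes lower (background 17.5% and 24.2%). Without TAD1m replicate 2 the 22 became 13, and over all genes 2634 lower calls became 1593. The S phase medians were -0.14 for TAD1m and -0.88 for TAD2m, with 18 and 44 of the 45 genes lower (the same background).

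**Figure D3:**
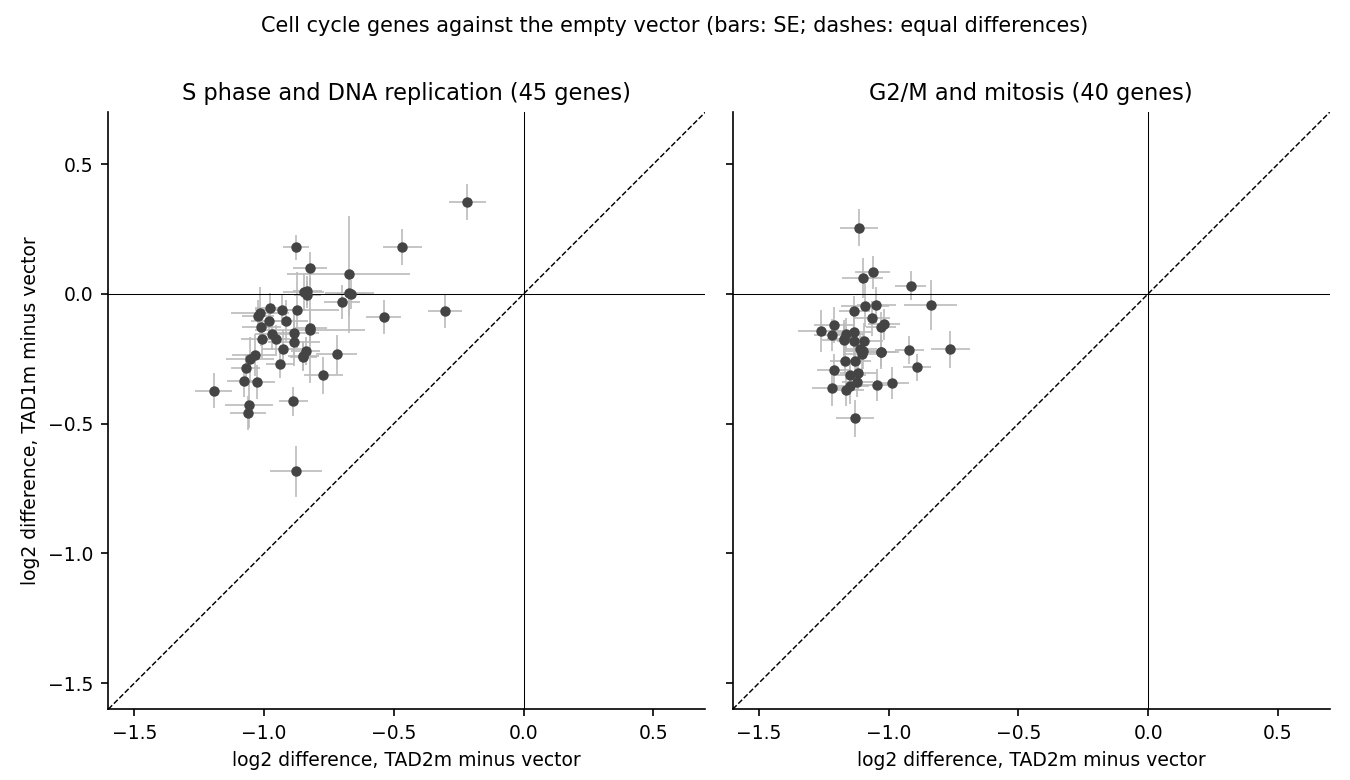
Each point is a gene of the S phase list (45 genes) or the G2/M list (40 genes), with its log2 difference TAD2m minus vector on the horizontal and TAD1m minus vector on the vertical axis; bars are SE and the dashed line marks equal differences. Both comparisons share the 2 vector libraries. Every point lies above the dashed line, with TAD2m medians of -0.88 and -1.11 and TAD1m medians of -0.14 and -0.20.

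The promoters of Cdc20 and Uhrf1 are shown because the G2/M and S phase lists each hold a different short motif more often than all genes. For G2/M it is the cell cycle homology region (CHR, TTTGAA), bound by the DREAM and MuvB complexes. For S phase it is the E2F motif TTCCCGC. Both genes were chosen among members with a match; the windows of Cenpe (CHR) and Rrm2 (E2F), with larger differences, hold none. The bases before the start, up to 250, are from RefSeq (GRCm38.p6), Cdc20 at chr4:118437353-118437593 (241 bases) on the - strand with the CHR in capitals and Uhrf1 at chr17:56303087-56303320 (234 bases) on the + strand with the E2F motif in capitals.
Cdc20: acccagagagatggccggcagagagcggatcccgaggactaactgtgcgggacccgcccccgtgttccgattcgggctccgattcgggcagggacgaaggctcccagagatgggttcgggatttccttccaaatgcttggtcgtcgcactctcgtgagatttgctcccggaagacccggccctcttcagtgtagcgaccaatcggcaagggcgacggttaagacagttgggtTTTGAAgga
Uhrf1: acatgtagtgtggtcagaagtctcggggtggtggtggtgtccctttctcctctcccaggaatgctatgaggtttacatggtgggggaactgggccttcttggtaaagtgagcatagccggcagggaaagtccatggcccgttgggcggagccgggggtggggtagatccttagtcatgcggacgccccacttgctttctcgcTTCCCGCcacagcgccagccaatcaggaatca
Searched on both strands of the 300-base windows, TTTGAA was in 23 of 33 G2/M genes (69.7%) and 11.7% of all windows. It was in 16% of genes higher with TAD1m and 8.83% of those lower. TTCCCGC was in 17 of 36 S phase genes (47.2%) and 8.91% of all windows. The other pairings were low: TTCCCGC was in 0 of 33 G2/M genes and TTTGAA in 5 of 36 S phase genes (13.9%). The CHR starts at position -18 in Cdc20 and the E2F motif at -48 in Uhrf1, counted from the start site. These shares describe letters only.

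Targets of the Hippo pathway coactivator YAP and its DNA-binding partners, the TEAD factors, were lower with TAD1m. Of 21 tested, 16 were lower (background 17.4%), 1 higher and 4 not called, and the median was -0.45. Ankrd1 (chr19:36111961-36119910, - strand), a nuclear ankyrin repeat protein, was at 303 and 292 CPM with TAD1m, 931 and 961 with TAD2m, 936 and 912 with p53WT, 273 and 274 with the empty vector and 329 and 338 with TAD12m. TAD2m and p53WT overlapped, and TAD1m was near the vector (-1.67 ± 0.05 SE, adjusted p = 1.34e-12). Ccn1 (chr3:145646976-145649981, - strand), a secreted matricellular protein, was at 184 and 184 CPM with TAD1m, 584 and 608 with TAD2m, 632 and 589.6 with p53WT, 179.8 and 183 with the empty vector and 244 and 255 with TAD12m. TAD1m did not differ from the vector past the threshold (0.02 ± 0.06 SE, adjusted p = 0.813), and the mutants differed by -1.69 ± 0.06 (SE, adjusted p = 2.23e-12). Ccn2 (chr10:24595442-24598678, + strand), the connective tissue growth factor, was at 233 and 233 CPM with TAD1m and 766 and 764 with TAD2m, and at 870.4 and 778 CPM with p53WT, 165 and 182 with the empty vector and 165 and 173 with TAD12m (-1.71 ± 0.06 SE, adjusted p = 9.1e-12). Of its exonic bases, 22.6% overlap Gm15270.

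Tgfb2, which encodes a TGF-beta ligand, was at 8.44 and 7.801 CPM with TAD1m and 17.8 and 19.2 with TAD2m, and at 15.5 and 15.4 CPM with p53WT, 10.3 and 12.6 with the empty vector and 9.65 and 9.16 with TAD12m. TAD1m was below the vector (-0.48 ± 0.13 SE, adjusted p = 0.00661) and TAD2m above it (0.70 ± 0.12 SE, adjusted p = 8.85e-05), but the TAD1m call was lost without TAD1m replicate 2 (-0.43, adjusted p = 0.0646) or vector replicate 2 (-0.34, adjusted p = 0.0758). Against the vector, 8 of 21 rose with TAD1m and 16 with TAD2m (background 19% and 24.9%), with medians of 0.06 for TAD1m and 0.70 for TAD2m. Axl, a receptor tyrosine kinase and the member that was higher with TAD1m (0.17), was not called without any 1 of the 4 libraries.

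The promoters of Ccn1 and Ankrd1 are shown because the TEAD motif CATTCC is common on this list. The bases before the start, up to 250, are from RefSeq (GRCm38.p6), Ccn1 at chr3:145649986-145650235 (250 bases) on the - strand and Ankrd1 at chr19:36119911-36120094 (184 bases) on the - strand, with the motif or its reverse complement in capitals.
Ccn1: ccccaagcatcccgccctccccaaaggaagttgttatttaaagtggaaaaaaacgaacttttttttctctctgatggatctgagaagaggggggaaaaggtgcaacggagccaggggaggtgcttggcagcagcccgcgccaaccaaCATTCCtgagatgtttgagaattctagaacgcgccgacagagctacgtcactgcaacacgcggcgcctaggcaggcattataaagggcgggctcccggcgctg
Ankrd1: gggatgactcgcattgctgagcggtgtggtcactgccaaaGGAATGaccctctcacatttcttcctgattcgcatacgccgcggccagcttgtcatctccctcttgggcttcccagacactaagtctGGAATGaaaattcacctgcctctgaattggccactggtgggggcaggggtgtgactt
CATTCC on either strand was in 8 of 17 YAP/TEAD genes with a window (47.1%), in 11.8% of all windows, in 11.1% of genes higher with TAD1m and in 13.8% of those lower. Ccn1 holds 1 match and Ankrd1 holds 2. As above, a match is a description.

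Secreted factors were mostly lower with TAD1m. Of 20 chemokine, cytokine and complement genes tested, 16 were lower, 1 (Il1rn) higher and 3 not called, with a median of -0.64. The higher count was 0 without TAD1m replicate 2. Ccl20, the ligand of CCR6, was at 59.3 and 60.1 CPM with TAD1m, 247 and 265 with TAD2m, 202 and 194 with p53WT, 107 and 106 with the empty vector and 117 and 124 with TAD12m. TAD1m was the lowest group and TAD2m the highest (-2.10 ± 0.06 SE, adjusted p = 5.33e-13). Cxcl16, a membrane-bound chemokine, was at 30.2 and 32.2 CPM with TAD1m, 107 and 109.6 with TAD2m, 110.1 and 103 with p53WT, 30.9 and 34.2 with the empty vector and 35.2 and 37.8 with TAD12m. TAD1m overlapped the vector and TAD2m overlapped p53WT (-1.80 ± 0.07 SE, adjusted p = 2.87e-11); 20.5% of its exonic bases overlap Zmynd15. Csf1, the macrophage growth factor, was at 78.9 and 78.97 CPM with TAD1m and 149 and 146 with TAD2m (-0.90 ± 0.06 SE, adjusted p = 4.36e-09), and Ccl2, a chemokine for monocytes, at 5.72 and 6.22 CPM with TAD1m and 10.9 and 10.4 with TAD2m (-0.84 ± 0.16 SE, adjusted p = 0.000724). Of 20 immune cell markers, 16 were under 1 CPM in all 10 libraries and 9 were at 0 in the 4 libraries, Cd3d, Cd4, Cd8a and Adgre1 among them. Their summed level was 142 to 148 CPM with TAD1m and 194 in both libraries with TAD2m, of which Cd14 made up 111 to 117 and 156 to 161. Csf1r was at 18.2 to 18.5 CPM with TAD1m and 18.8 to 21.2 with TAD2m. Cd68 was at 7.11 to 7.80 and 8.39 to 9.63, and Mrc1 at 4.05 to 4.50 and 5.82 to 5.91. The part of the immune markers in the result was not tested.

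Of 22 matrix proteases and inhibitors, 12 were lower, 3 higher and 7 not called, with a median of -0.56. With DESeq2 the higher count was 1. The higher count was 1 without TAD1m replicate 2 or TAD2m replicate 1. Plat, the tissue-type activator of plasmin formation, was at 80.4 and 81.6 CPM with TAD1m, 169.99 and 174 with TAD2m, 141 and 145 with p53WT, 64.5 and 61.1 with the empty vector and 79.5 and 76.4 with TAD12m. TAD1m was well below TAD2m (-1.08 ± 0.06 SE, adjusted p = 8.06e-10). Timp2, a metalloproteinase inhibitor, was at 489.9 and 536 CPM with TAD1m and 1142 and 1176 with TAD2m, with 514 and 525 in the vector libraries (-1.18 ± 0.05 SE, adjusted p = 1.21e-10). Timp3 was at 38.4 and 38.5 CPM with TAD1m and 86.2 and 92.99 with TAD2m (-1.22 ± 0.08 SE, adjusted p = 1.43e-08), and 36.7% of its exonic bases overlap Syn3.

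Of 22 mesenchymal and matrix genes, 12 were lower, 4 higher and 6 not called, with a median of -0.40. The 4 higher ones were Vim, Zeb1, Snai2 and Col18a1, while Cdh2, Fn1 and Zeb2 were among the 12 lower ones. The higher count was 2 without TAD2m replicate 1. Thbs1 (chr2:118111876-118127133, + strand), the antiangiogenic matrix protein thrombospondin 1, was at 43.997 and 43.1 CPM with TAD1m, 392 and 372 with TAD2m, 370.04 and 382 with p53WT, 63.2 and 57.6 with the empty vector and 61.8 and 52.05 with TAD12m. TAD2m overlapped p53WT and TAD1m was below the vector, with a difference of -3.13 ± 0.08 (SE, adjusted p = 1.08e-13) between the mutants. Sparc, a collagen-binding protein, was at 103 and 108 CPM with TAD1m and 238 and 228 with TAD2m, with 152 and 155 in the vector libraries between them (-1.15 ± 0.06 SE, adjusted p = 3.53e-10). All 14 fibroblast markers were under 1 CPM, and Col1a2, Col3a1, Dcn and Pdgfrb were at 0 in the 4 libraries; their summed level was 0.888 to 1.16 CPM with TAD1m and 1.797 to 1.802 with TAD2m.

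Epithelial genes were split. Of 21 tested, 10 were lower with TAD1m, 3 higher and 8 not called, with a median of -0.21, and 6 of the lower ones were the keratins Krt7, Krt8, Krt18, Krt19, Krt20 and Krt23. Krt7 was at 157 and 160.2 CPM with TAD1m, 563 and 532 with TAD2m, 569.8 and 532 with p53WT, 155 and 164 with the empty vector and 122 and 153 with TAD12m. TAD1m overlapped the vector and TAD2m p53WT (-1.79 ± 0.09 SE, adjusted p = 9.63e-09). Krt18 was at 1791 and 1837 CPM with TAD1m and 2992 and 2920.4 with TAD2m (-0.70 ± 0.05 SE, adjusted p = 4.65e-08). The summed level of 10 ductal markers was 5227 to 5325 CPM with TAD1m and 7951 to 8281 with TAD2m, and its part in the result was not tested. Pkp3, a desmosomal plakophilin, was higher, at 9.13 and 10.02 CPM with TAD1m and 4.37 and 2.695 with TAD2m (1.43 ± 0.31 SE, adjusted p = 0.00474).

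Of 15 mucin and gastric-type genes, 5 were lower and 4 higher, with a median of -0.54; the higher count was 2 without TAD1m replicate 2 or TAD2m replicate 1. Muc1, a membrane mucin, was at 333 and 355 CPM with TAD1m and 735 and 735 with TAD2m, with 627 and 644 in the vector libraries (-1.10 ± 0.05 SE, adjusted p = 3.43e-10). Ctse, the gastric protease cathepsin E, was at 68.7 and 74.4 CPM with TAD1m and 164 and 161 with TAD2m (-1.18 ± 0.06 SE, adjusted p = 5.24e-10). Vsig1, a junction protein of gastric epithelium, was higher, at 166 and 163 CPM with TAD1m and 93.9 and 98.4 with TAD2m (0.78 ± 0.07 SE, adjusted p = 1.34e-07), and below the vector (233 and 227 CPM) with both mutants.

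Of 17 MHC class I genes, 8 were lower, 1 (Nlrc5) higher and 8 not called, with a median of -0.34. H2-K1, a classical class I heavy chain, was at 71.98 and 73.4 CPM with TAD1m, 160.2 and 159 with TAD2m, 194 and 173 with p53WT, 117 and 125 with the empty vector and 90.5 and 106 with TAD12m. TAD1m was the lowest group (-1.13 ± 0.08 SE, adjusted p = 1.39e-08); reads of related class I genes may be split between copies. Tapbp, the chaperone tapasin, was at 35.4 and 35.96 CPM with TAD1m and 68.9 and 67.5 with TAD2m (-0.93 ± 0.09 SE, adjusted p = 3.23e-07), and 18.4% of its exonic bases overlap Gm19412. Of 23 interferon response genes, 5 were lower, 2 higher and 16 not called, with a median of 0.00. With DESeq2 the higher count was 0, and it also fell without TAD1m replicate 1, TAD1m replicate 2 or TAD2m replicate 1.

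**Figure D4:**
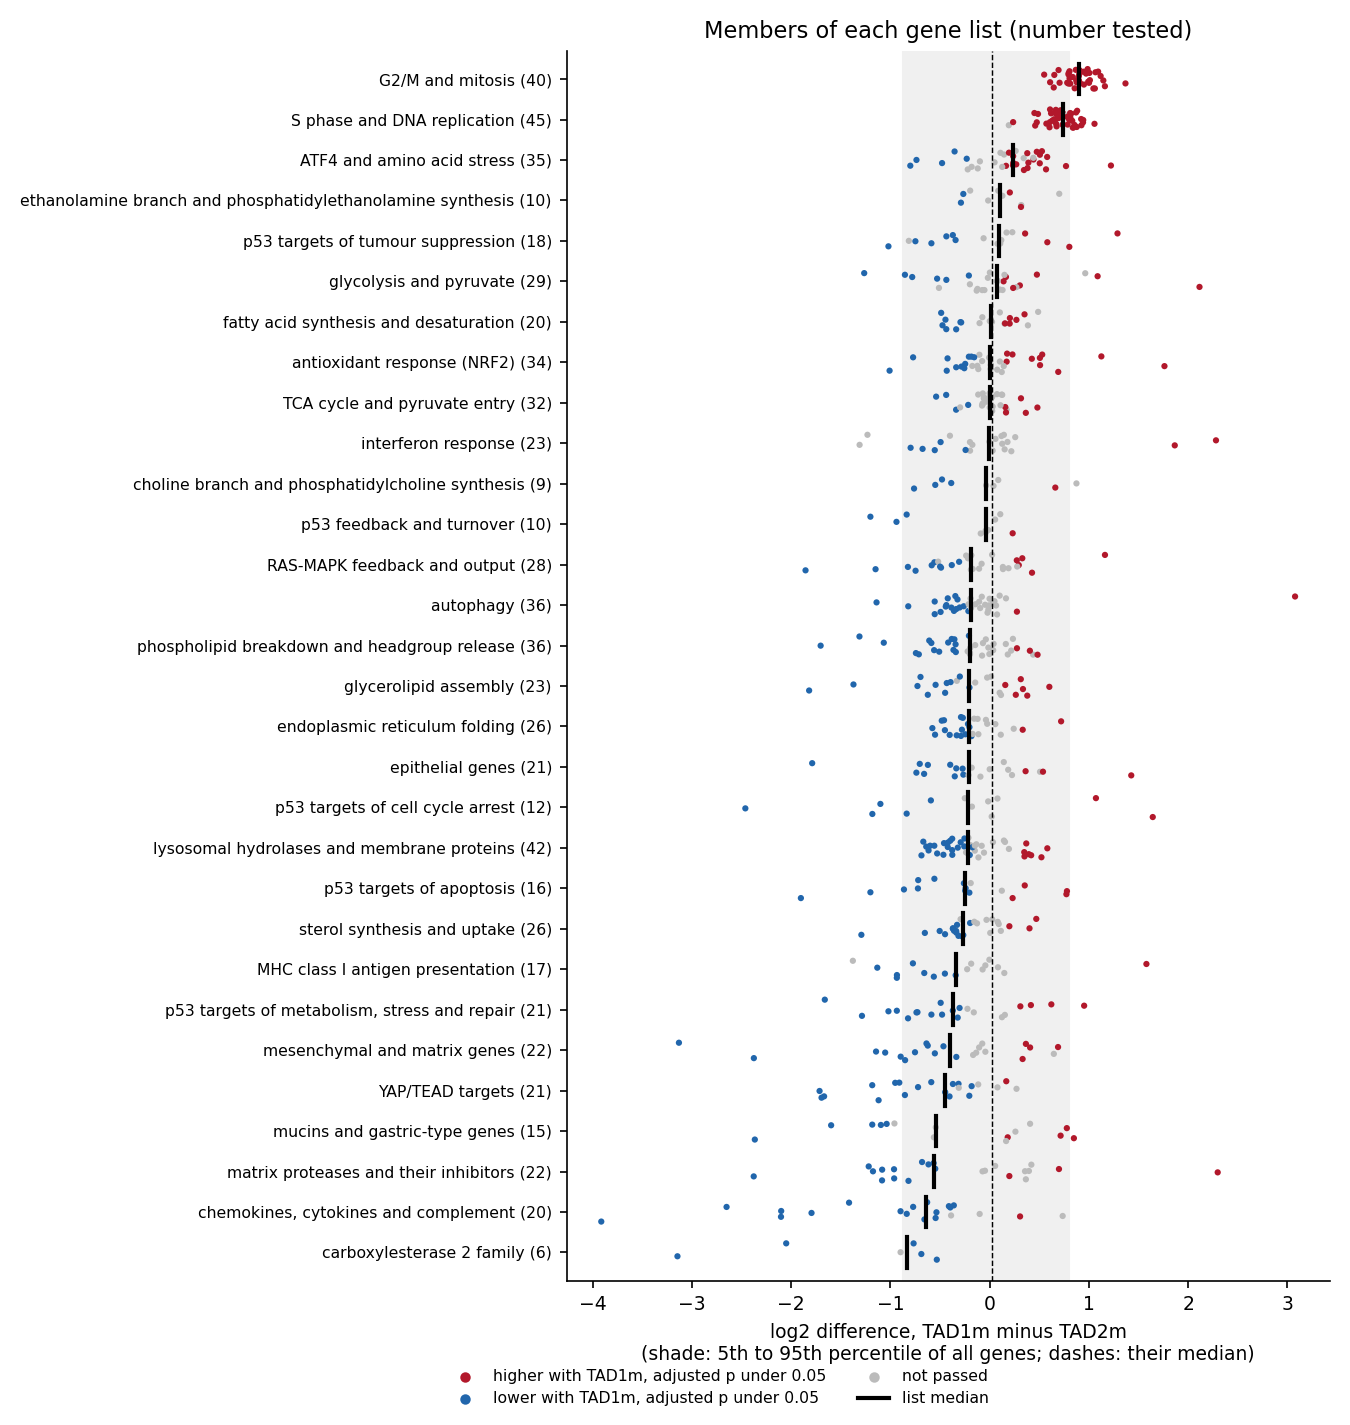
Log2 differences, TAD1m minus TAD2m, of the tested members of 30 gene lists (number tested in brackets), ordered by median (black bar); red and blue mark members called higher and lower, the shade spans the 5th to the 95th percentile of all genes (-0.87 to 0.80) and the dashes mark their median of 0.03. The G2/M list (0.90) and the S phase list (0.73) have the highest medians, and the carboxylesterase 2 family (-0.83) and the chemokine list (-0.64) the lowest.

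The series concerns phospholipid headgroups, and cells make phosphatidylethanolamine and phosphatidylcholine through parallel branches of a kinase, a cytidylyl transferase and a transferase. In the ethanolamine branch, the kinase gene Etnk1 was at 189.5 and 193 CPM with TAD1m and 169 and 181 with TAD2m. The difference of 0.13 ± 0.06 (SE, adjusted p = 0.117) did not pass, and with the 4 libraries fitted alone it was 0.10 (adjusted p = 0.0458). Pcyt2, the cytidylyl transferase, was at 89.96 and 95.1 CPM with TAD1m, 82.2 and 78.5 with TAD2m, 81.8 and 75.7 with p53WT, 91.6 and 98.7 with the empty vector and 88.96 and 103 with TAD12m. TAD1m overlapped the vector, and the mutants differed by 0.20 ± 0.08 (SE, adjusted p = 0.047). This call was lost with the replicate block (adjusted p = 0.0536) and without each of the 4 libraries in turn (adjusted p from 0.101 to 0.276). Selenoi, the ethanolamine phosphotransferase, was at 120.2 and 122 CPM with TAD1m and 96.3 and 98.3 with TAD2m, with 139 and 131 in the vector libraries (0.32 ± 0.06 SE, adjusted p = 0.000924). Of the 10 genes of the branch, 2 were higher (Pcyt2 and Selenoi), 2 lower (Ptdss1 and Sgpl1) and 6 not called, with a median of 0.11. The lower count was 1 without TAD1m replicate 1 or TAD2m replicate 2.

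In the choline branch, the kinase gene Chka was at 281 and 271 CPM with TAD1m, 406 and 401 with TAD2m, 421 and 404 with p53WT, 268 and 262 with the empty vector and 275 and 278 with TAD12m. TAD1m was near the vector and TAD2m near p53WT (-0.55 ± 0.05 SE, adjusted p = 3.77e-07). Pcyt1a, the rate-limiting cytidylyl transferase, was at 164 and 176 CPM with TAD1m, 285 and 292 with TAD2m, 262 and 277 with p53WT, 156 and 161 with the empty vector and 133 and 131 with TAD12m, with TAD1m between the vector and TAD2m (-0.76 ± 0.06 SE, adjusted p = 2.83e-08); 11.8% of its exonic bases overlap Slc51a. Chpt1, the choline phosphotransferase, was at 41.6 and 39.5 CPM with TAD1m and 55.9 and 57.4 with TAD2m (-0.48 ± 0.07 SE, adjusted p = 9.01e-05), and Flvcr1, a choline transporter, was higher at 46.9 and 49.8 CPM with TAD1m and 28.9 and 32.3 with TAD2m (0.66 ± 0.09 SE, adjusted p = 3.54e-05); 10.8% of the exonic bases of Chpt1 overlap Sycp3 and 19.4% of those of Flvcr1 overlap A230020J21Rik. Of 9 genes, 4 were lower (with Slc44a2), 1 higher and 4 not called, with a median of -0.04.

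**Figure D5:**
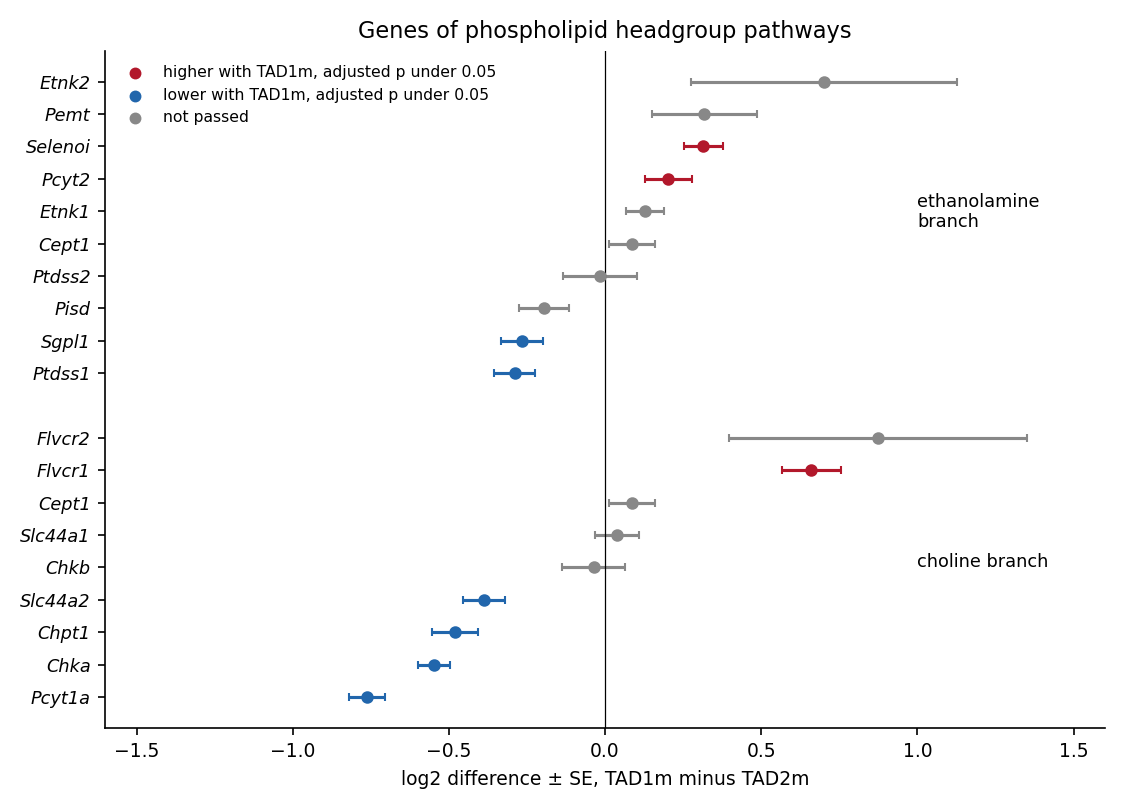
Log2 difference, TAD1m minus TAD2m, of each tested gene of the ethanolamine branch (upper rows) and the choline branch (lower rows); bars are SE, red and blue mark genes higher and lower at an adjusted p under 0.05. Chka and Pcyt1a lie at -0.55 and -0.76, and Etnk1, Pcyt2 and Selenoi at 0.13, 0.20 and 0.32.

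Of 36 genes that break phospholipids down or release headgroups, 16 were lower with TAD1m, 3 higher and 17 not called, with a median of -0.20. Against the vector, 9 rose with TAD1m (5 without TAD1m replicate 2) and 19 with TAD2m, against a background of 19% and 24.9%. Sphk1, a sphingosine kinase, was at 6.88 and 8.18 CPM with TAD1m, 24.3 and 24.6 with TAD2m, 27.05 and 24.5 with p53WT, 8.83 and 10.3 with the empty vector and 5.48 and 6.98 with TAD12m. TAD1m was just below the vector and TAD2m near p53WT (-1.70 ± 0.13 SE, adjusted p = 3.8e-08). Enpp5, of the nucleotide pyrophosphatase and phosphodiesterase family, was at 10.7 and 10.3 CPM with TAD1m and 24.3 and 27.9 with TAD2m (-1.31 ± 0.11 SE, adjusted p = 1.16e-07), and Gdpd1, a glycerophosphodiesterase, at 11.4 and 10.5 CPM with TAD1m and 17.1 and 19.02 with TAD2m (-0.71 ± 0.11 SE, adjusted p = 0.000104). Pnpla2, the triglyceride lipase ATGL, was at 60.4 and 61.5 CPM with TAD1m and 107 and 97.3 with TAD2m (-0.74 ± 0.10 SE, adjusted p = 3.47e-05).

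Of 23 genes of glycerolipid assembly, 11 were lower and 6 higher, with a median of -0.20. Lpin1, a phosphatidic acid phosphatase and p53 target, was at 56.5 and 58.99 CPM with TAD1m, 94.2 and 97.04 with TAD2m, 88.6 and 94.7 with p53WT, 30.4 and 28.4 with the empty vector and 34.3 and 33.6 with TAD12m, with TAD1m midway (-0.73 ± 0.07 SE, adjusted p = 2.54e-07).

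Of 26 sterol genes, 14 were lower, 3 higher and 9 not called, with a median of -0.27. Against the vector, 21 were lower for TAD1m and 16 for TAD2m (background 17.5% and 24.2%), with medians of -0.47 for TAD1m and -0.24 for TAD2m. Hsd17b7, an enzyme of cholesterol synthesis, was at 57.1 and 58.2 CPM with TAD1m and 87.2 and 94.2 with TAD2m, with 88.96 and 79.2 in the vector libraries (-0.65 ± 0.08 SE, adjusted p = 5.16e-06). Of 20 fatty acid genes, 7 were lower and 5 higher, with a median of 0.01; the higher count was 1, 3, 3 and 2 without TAD1m replicate 1, TAD1m replicate 2, TAD2m replicate 1 and TAD2m replicate 2. Scd1, the stearoyl-CoA desaturase, was at 445 and 457 CPM with TAD1m and 623 and 643 with TAD2m, and the vector (614 and 618 CPM) was close to TAD2m (-0.49 ± 0.05 SE, adjusted p = 2.4e-06).

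Of 42 lysosomal genes, 21 were lower with TAD1m, 7 higher and 14 not called, with a median of -0.22. Against the vector, 27 rose with TAD1m and 33 with TAD2m (background 19% and 24.9%), with medians of 0.45 for TAD1m and 0.61 for TAD2m. Ctsd, the aspartic protease cathepsin D, was at 845 and 858 CPM with TAD1m, 1306 and 1304 with TAD2m, 1321 and 1332 with p53WT, 368 and 357 with the empty vector and 407 and 421 with TAD12m. TAD1m was above the vector and below TAD2m (-0.62 ± 0.05 SE, adjusted p = 6.58e-08); 31.5% of its exonic bases overlap Gm49369. Ctsh, the protease cathepsin H, was at 59.6 and 63.2 CPM with TAD1m and 95.6 and 102 with TAD2m, and both were below the vector (130.0 and 109.6 CPM), with a difference of -0.69 ± 0.10 (SE, adjusted p = 9.79e-05). The call for Ctso, cathepsin O (-0.64 ± 0.16 SE, adjusted p = 0.00484), was lost with DESeq2 (-0.66, adjusted p = 0.069) and without TAD1m replicate 1 (-0.58).

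Of 36 autophagy genes, 16 were lower and 2 higher, with a median of -0.19; the higher count was 1 without TAD1m replicate 2. Gabarapl2 and Map1lc3a, of the ATG8 family that coats the autophagosome membrane, were lower by -0.82 ± 0.07 (SE, adjusted p = 1.66e-07) and -1.14 ± 0.14 (SE, adjusted p = 6.27e-06). Nbr1, a receptor for ubiquitinated cargo, was at 138 and 138 CPM with TAD1m and 201 and 204 with TAD2m, with 104 and 101 in the vector libraries (-0.55 ± 0.06 SE, adjusted p = 1.21e-06). Dram1 (chr10:88322804-88357075, - strand), a lysosomal membrane protein first described as a p53-induced regulator of autophagy, stood against the list. It was at 14.05 and 12.1 CPM with TAD1m, 1.802 and 1.27 with TAD2m, 0.877 and 1.09 with p53WT, 0.766 and 0.92 with the empty vector and 2.11 and 2.23 with TAD12m. Every other library was far below both TAD1m libraries, with a difference of 3.08 ± 0.19 (SE, adjusted p = 4.36e-09), the largest among called genes with at least 5 CPM.

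Genes of the amino acid stress response driven by ATF4 were more often higher with TAD1m, 19 of 35, with 5 lower and 11 not called and a median of 0.24. The lower count was 3 without any 1 of the 4 libraries. Against the vector the medians were 0.04 for TAD1m and -0.26 for TAD2m. Cth, the transsulfuration enzyme cystathionine gamma-lyase, was at 88.2 and 80.7 CPM with TAD1m, 35.2 and 37.3 with TAD2m, 36.1 and 40.9 with p53WT, 54.8 and 47.7 with the empty vector and 60.3 and 55.5 with TAD12m. TAD1m was the highest group (1.22 ± 0.09 SE, adjusted p = 1.82e-08), above the vector (0.72 ± 0.08 SE, adjusted p = 4.1e-06), and TAD2m was below it (-0.50 ± 0.09 SE, adjusted p = 0.000177). Slc7a5, a transporter of large neutral amino acids, was at 336 and 343 CPM with TAD1m and 199 and 199 with TAD2m, with 294 and 325 in the vector libraries (0.77 ± 0.06 SE, adjusted p = 6.7e-08). Atf3, a stress-induced repressor, was lower, at 12.7 and 12.1 CPM with TAD1m and 21.1 and 22.01 with TAD2m (-0.80 ± 0.11 SE, adjusted p = 1.63e-05).

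Of 26 genes of protein folding in the endoplasmic reticulum, 15 were lower and 2 higher, with a median of -0.21. Hspa5, the chaperone BiP, was at 480.4 and 441 CPM with TAD1m, 674 and 702 with TAD2m, 656 and 638 with p53WT, 649.9 and 592 with the empty vector and 592 and 599 with TAD12m; TAD1m was the lowest group (-0.58 ± 0.06 SE, adjusted p = 1.12e-06). Edem1, which targets misfolded glycoproteins for degradation, was higher, at 178 and 178 CPM with TAD1m and 105 and 111 with TAD2m (0.72 ± 0.06 SE, adjusted p = 5.66e-08).

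Of 34 genes of the NRF2 antioxidant response, 10 were higher and 11 lower, with a median of 0.00; the higher count was 6 without TAD1m replicate 1, TAD2m replicate 1 or TAD2m replicate 2, and the lower count 7 without TAD2m replicate 2. Nfe2l2, which encodes NRF2, was at 311 and 310.1 CPM with TAD1m and 521 and 539.8 with TAD2m, with 346 and 333 in the vector libraries (-0.77 ± 0.06 SE, adjusted p = 2.58e-08). Osgin1, a growth inhibitor under oxidative stress, was lower (-1.01 ± 0.17 SE, adjusted p = 0.00426), and Gstm1, a glutathione transferase, higher (0.69 ± 0.06 SE, adjusted p = 9.2e-08).

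Of 32 genes of the TCA cycle and pyruvate entry, 5 were higher, 4 lower and 23 not called, with a median of 0.00; the higher count was 3 without any 1 of the 4 libraries or with DESeq2 size factors, DESeq2 or no filter, and 8 with total count scaling, and the lower count was 2 without TAD2m replicate 1. Pcx, pyruvate carboxylase, was at 52.6 and 53.6 CPM with TAD1m, 70.1 and 73.8 with TAD2m, 79.4 and 82.5 with p53WT, 29.2 and 34.8 with the empty vector and 27.2 and 33.6 with TAD12m, with TAD1m midway between vector and TAD2m (-0.44 ± 0.09 SE, adjusted p = 0.00141). Idh2, a mitochondrial isocitrate dehydrogenase, was at 96.1 and 99.9 CPM with TAD1m and 70.8 and 69.6 with TAD2m, and the vector (100.4 and 101 CPM) was close to TAD1m (0.48 ± 0.07 SE, adjusted p = 3.2e-05).

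Of 29 genes of glycolysis, 7 were higher, 6 lower and 16 not called, with a median of 0.07; the higher count was 3 without replicate 1 of TAD1m or of TAD2m and 4 without replicate 2 of either. Pdk2, a kinase that inhibits pyruvate dehydrogenase, was at 2.83 and 3.04 CPM with TAD1m and 6.58 and 7.56 with TAD2m (-1.26 ± 0.18 SE, adjusted p = 2.75e-05).

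Of 28 genes of RAS-MAPK output, 10 were lower, 5 higher and 13 not called, with a median of -0.19; the higher count was 3 without replicate 1 of TAD1m or of TAD2m and 2 without replicate 2 of either. Ier3, an immediate early gene, was at 38.04 and 38.6 CPM with TAD1m, 84.2 and 85.95 with TAD2m, 89.2 and 81.4 with p53WT, 37.97 and 38.7 with the empty vector and 37.1 and 44.04 with TAD12m. TAD1m overlapped the vector and TAD2m overlapped p53WT (-1.15 ± 0.08 SE, adjusted p = 1.45e-08). Spred3, an inhibitor of the RAS pathway, was at 2.72 and 2.41 CPM with TAD1m and 9.49 and 9.13 with TAD2m (-1.86 ± 0.17 SE, adjusted p = 2.33e-07), and Btc, the EGF receptor ligand betacellulin, was higher, at 23.1 and 22.01 CPM with TAD1m and 10.05 and 10.1 with TAD2m (1.16 ± 0.11 SE, adjusted p = 3.35e-07).

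The carboxylesterase 2 family, liver and gut hydrolases of ester drugs and lipids, was lower with TAD1m in 5 of 6 members, with a median of -0.83. With DESeq2 the count was 3, and it also fell without TAD1m replicate 1. Near-identical copies of this cluster may share reads. Ces2e was at 22.8 and 26.005 CPM with TAD1m, 41.6 and 41.3 with TAD2m, 30.8 and 33.8 with p53WT, 0 and 0.0657 with the empty vector and 0 and 0 with TAD12m. The vector libraries together held 1 count, and the mutants differed by -0.77 ± 0.10 (SE, adjusted p = 2.11e-05). Ces2g was at 72.9 and 72.6 CPM with TAD1m, 115 and 119 with TAD2m, 123 and 129 with p53WT, 62.2 and 59.6 with the empty vector and 23.2 and 21.8 with TAD12m. TAD1m and TAD2m differed by -0.69 ± 0.06 (SE, adjusted p = 2.34e-07). The TAD12m libraries lay below the vector libraries, a difference that was not tested.

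Across all called genes with at least 5 CPM over the 4 libraries, the lowest differences described here ran from -3.90 to -2.44; they were picked from the called genes by size. Cdkn1a and Thbs1, described above, were among them. Ndnf (chr6:65671590-65712326, + strand), a secreted neuron-derived neurotrophic factor, was at 0.752 and 1.01 CPM with TAD1m, 11.8 and 14.6 with TAD2m, 13.2 and 14.8 with p53WT, 2.55 and 2.104 with the empty vector and 2.004 and 2.18 with TAD12m. TAD1m was the lowest group, and the vector and TAD12m libraries lay between the mutants (-3.90 ± 0.21 SE, adjusted p = 9.24e-10). Gm29233, a gene model on the strand opposite to Thbs1, was at 0.983 and 1.08 CPM with TAD1m and 12.9 and 10.9 with TAD2m. It shares 66.5% of its exonic bases with Thbs1, so its reads cannot be told apart from those of Thbs1. Crct1, a gene of the epidermal differentiation complex, was at 1.68 and 1.84 CPM with TAD1m, 16.7 and 16.4 with TAD2m, 20.04 and 17.02 with p53WT, 0.255 and 0.329 with the empty vector and 0.316 and 0.327 with TAD12m (-3.23 ± 0.16 SE, adjusted p = 3.47e-10). Sytl1, a synaptotagmin-like effector of RAB27, was at 1.39 and 1.08 CPM with TAD1m and 10.8 and 9.81 with TAD2m (-3.05 ± 0.26 SE, adjusted p = 1.82e-07). Neither reached 0.5 CPM in any vector or TAD12m library.

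Cryab, the small heat shock protein alpha B-crystallin, was at 5.38 and 5.52 CPM with TAD1m, 45.7 and 43.8 with TAD2m, 44.7 and 45.3 with p53WT, 4.29 and 3.29 with the empty vector and 1.85 and 1.14 with TAD12m (-3.04 ± 0.12 SE, adjusted p = 2.66e-11). TAD2m and p53WT libraries were alike in level, and TAD1m was just above the vector. Frmpd1, a scaffold protein of the cell cortex, was at 3.53 and 3.81 CPM with TAD1m and 30.7 and 28.7 with TAD2m, and at 24.8 and 23.99 CPM with p53WT, 4.696 and 5.98 with the empty vector and 5.27 and 5.34 with TAD12m; TAD1m was below every other library (-3.02 ± 0.13 SE, adjusted p = 4.54e-11). Mab21l4 (-2.86), Tnip3, an inhibitor of NF-kappaB signalling (-2.82), and Synpo, the actin regulator synaptopodin (-2.44), were lower too. In the p53WT libraries they were at 45.96 and 45.04, 59.1 and 58.2 and 32.4 and 33.8 CPM, close to their TAD2m levels of 45.2 and 42.98, 66.2 and 69.6 and 29.3 and 30.1.

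The 12 highest differences ran from 1.76 to 3.08, picked in the same way. Ntn1 (chr11:68209364-68386826, - strand), the guidance cue netrin 1 and a dependence receptor ligand, was at 13.99 and 16.998 CPM with TAD1m, 2.84 and 2.695 with TAD2m, 1.06 and 0.547 with p53WT, 0.102 and 0.394 with the empty vector and 1.32 and 1.58 with TAD12m (2.48 ± 0.20 SE, adjusted p = 8.34e-08). Only the TAD1m libraries exceeded 3 CPM among these 10. Add2, the cytoskeletal protein beta-adducin, was at 33.9 and 30.1 CPM with TAD1m, 7.07 and 6.14 with TAD2m, 3.32 and 3.14 with p53WT, 2.65 and 3.22 with the empty vector and 4.01 and 4.25 with TAD12m (2.27 ± 0.12 SE, adjusted p = 8.29e-10). Rasl11a, a RAS-like GTPase, was at 18.9 and 19.9 CPM with TAD1m, 4.23 and 4.12 with TAD2m, 4.26 and 4.1005 with p53WT, 4.85 and 4.73 with the empty vector and 5.75 and 6.54 with TAD12m (2.21 ± 0.13 SE, adjusted p = 2.28e-09). In both genes TAD1m stood above the 8 other libraries, and for Add2 the TAD2m libraries were the next highest.

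Angptl2, a secreted angiopoietin-like protein, was at 11.5 and 11.3 CPM with TAD1m, 2.36 and 2.695 with TAD2m, 2.94 and 2.94 with p53WT, 0.051 and 0.0657 with the empty vector and 0.422 and 0.218 with TAD12m (2.17 ± 0.17 SE, adjusted p = 5.64e-08); the vector libraries together held 2 counts. Jag2, a Notch ligand, was at 83.7 and 88.4 CPM with TAD1m, 22.6 and 19.99 with TAD2m, 20.1 and 18.999 with p53WT, 11.99 and 20.4 with the empty vector and 23.9 and 34.4 with TAD12m (2.01 ± 0.25 SE, adjusted p = 0.000921). Nrg2, an ERBB receptor ligand, was at 20.8 and 20.2 CPM with TAD1m and 5.96 and 5.02 with TAD2m (1.90 ± 0.15 SE, adjusted p = 5.92e-08), and Robo1, a receptor for SLIT guidance cues, at 11.3 and 12.2 CPM with TAD1m and 2.98 and 3.37 with TAD2m (1.89 ± 0.16 SE, adjusted p = 9.66e-08). Dffb, the nuclease that fragments DNA in apoptosis, was at 16.5 and 19.6 CPM with TAD1m, 5.75 and 4.72 with TAD2m, 5.32 and 6.22 with p53WT, 5.67 and 5.26 with the empty vector and 6.12 and 5.94 with TAD12m; the 8 libraries of the other groups were all below 7 CPM (1.78 ± 0.14 SE, adjusted p = 7.69e-08). Cbr3, a carbonyl reductase, was at 25.2 and 23.6 CPM with TAD1m, 7.07 and 7.34 with TAD2m, 8.14 and 7.72 with p53WT, 8.42 and 8.94 with the empty vector and 6.49 and 8.83 with TAD12m, with TAD1m again above the 8 other libraries (1.76 ± 0.13 SE, adjusted p = 3.41e-08). Pde5a, a cGMP phosphodiesterase (1.76), and Eif4e3, a cap-binding protein (1.80), were at 40.9 and 40.2 CPM and 27.7 and 27.3 CPM with TAD1m. Of the exonic bases of Eif4e3, 14.8% overlap Gm20696. In the p53WT libraries all 12 lay below both TAD1m libraries.

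A last list came from the KPsh cells of the same series, a different pancreatic cancer line grown for 10 days on or off doxycycline, 3 libraries each. Trp53 was higher off the drug (3.61 ± 0.07 SE, log2), and no library is shared with the KPnull cells. Genes called higher there by at least 2 on the log2 scale, with at least 5 CPM, numbered 219, and 210 of them were tested in the KPnull table. With TAD1m, 149 of the 210 were lower than with TAD2m, 19 higher and 42 not called, and the median was -0.75. Against the vector, 144 rose with TAD1m and 192 with TAD2m (background 19% and 24.9%), with medians of 0.96 for TAD1m and 1.86 for TAD2m. Of 311 genes that were lower off the drug by at least 1 on that scale, 293 were tested: 151 were higher with TAD1m, 23 lower and 119 not called, with a median of 0.33. Ano3, a membrane protein of the anoctamin family, rose in KPsh cells by 8.58 ± 0.32 (SE), and in KPnull cells was at 0 and 0 CPM with TAD1m, 7.62 and 6.89 with TAD2m, 8.89 and 11.9 with p53WT, 0 and 0 with the empty vector and 0 and 0 with TAD12m. With 0 counts in both TAD1m libraries, it was at least 80.1-fold lower than with TAD2m, with 3 counts over the group as the floor. Celf5, an RNA-binding splicing regulator, was at 0.752 and 1.08 CPM with TAD1m, 8.18 and 9.51 with TAD2m, 16.2 and 15.9 with p53WT, 0.306 and 0.46 with the empty vector and 0.211 and 0.273 with TAD12m (-3.27 ± 0.21 SE, adjusted p = 6.5e-09); 12.4% of its exonic bases overlap Gm16105. Ndnf and Thbs1, above, were the other members with the lowest differences.

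At the other end of the raised genes, Pltp, the phospholipid transfer protein, was at 35.2 and 37.5 CPM with TAD1m, 10.9 and 11.8 with TAD2m, 9.89 and 9.57 with p53WT, 2.603 and 2.56 with the empty vector and 6.28 and 7.41 with TAD12m. TAD1m was the highest group (1.68 ± 0.10 SE, adjusted p = 3.38e-09), and 27.4% of its exonic bases overlap Ctsa. Havcr2, which encodes the checkpoint receptor TIM-3, was at 1.503 and 1.65 CPM with TAD1m and 0.485 and 0.599 with TAD2m (1.53 ± 0.34 SE, adjusted p = 0.00191), under 2 CPM in every library. Among genes lowered in KPsh cells, Sult1d1, a sulfotransferase, was at 2.31 and 2.28 CPM with TAD1m and 0.624 and 0.749 with TAD2m (1.74 ± 0.36 SE, adjusted p = 0.00121) and Nhs, an actin regulator, at 1.97 and 1.395 CPM with TAD1m and 0.208 and 0.599 with TAD2m (2.07 ± 0.41 SE, adjusted p = 0.000835), both at low counts.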

How the data were processed

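Polyadenylated RNA of cultured mouse pancreatic cancer cells was sequenced with a stranded kit, per the labels' protocols. Reads were aligned with STAR 2.6.1c to mm10 and handled with HOMER, per the submitters' processing notes. The deposited values are estimated counts per gene, not normalized: per the file headers, the authors counted exons of GENCODE models on both strands and condensed genes. Some end in 0.5, so they were rounded up to whole numbers. Reads of overlapping and antisense genes therefore cannot be told apart.

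Groups came from the titles. The KPsh columns off doxycycline carry only the day in their names and were matched to their samples by elimination. The KPnull columns were fitted with edgeR 4.0.16 (R 4.3.3), filterByExpr at a minimum count of 10, TMM scaling and the robust quasi-likelihood F test, with group means over 10 libraries (5 residual degrees of freedom). P-values were Benjamini-Hochberg adjusted over 15075 genes, called under 0.05, two-sided; SE is the log2 difference divided by the square root of F. CPM were taken on TMM-scaled totals. Exon overlaps come from the GENCODE vM21 annotation. Column values mapped to no sample numbered 0.

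The gene lists and the comparison were chosen with earlier results of these data known. Named genes are 9 headgroup and p53 genes, up to 4 called members of each list by size with at least 5 CPM, the 12 highest and 12 lowest called genes with no overlap between groups, and the ends of the KPsh list. Other members are named without that rule, after their values were seen, mainly to spell out small counts. Alternatives were DESeq2 1.42.0 (test and size factors), no filter, the 4 libraries alone, a replicate block, rounding down and leaving out each replicate. Scaling to the total count and a crossed block were added after seeing the data. Some genes that the rule names are not reported here.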

Additional observations from a re-analysis of the deposited data

Results flagged for a closer look

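The effects against the empty vector went opposite ways for 9 genes described here, each called on both sides and at least 0.4 on the log2 scale from the vector. Both effects are read against the same 2 vector libraries, and the difference given for each gene is the TAD1m minus TAD2m contrast of the same fit.

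Below the vector with TAD1m and above it with TAD2m were 7 genes. Ndnf, the secreted neurotrophic factor, had a TAD1m minus TAD2m difference of -3.90, Gm29233 one of -3.53 and Thbs1, thrombospondin 1, one of -3.13. Gm29233 shares most of its exonic bases with Thbs1, so these are not separate observations. The call of Gm29233 below the vector with TAD1m (adjusted p = 0.0434) was lost with DESeq2 (0.138), without the filter (0.0778) and without any 1 of the 2 TAD1m and 2 vector libraries (0.0638 to 0.173). Frmpd1, the scaffold protein, differed by -3.02 and Ccl20, the CCR6 ligand, by -2.10. The TAD1m side of Frmpd1 (adjusted p = 0.0163) was lost with DESeq2 (0.0595), without TAD1m replicate 1 (0.1) and without vector replicate 2 (0.149). Tgfb2, the TGF-beta ligand, differed by -1.18, and its TAD1m side was lost without TAD1m replicate 2 or vector replicate 2. Sparc, the collagen-binding protein, differed by -1.15.

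Above the vector with TAD1m and below it with TAD2m were Cth, the transsulfuration enzyme, with a difference of 1.22, and Anxa10, an annexin of gastric-type epithelium, with 0.85.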

How the results depend on the processing

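No called difference between TAD1m and TAD2m changed sign under any setting tried for the 143 named genes. The counts of 2737 higher and 2622 lower genes were 2557 and 2764 with DESeq2 size factors, 1916 and 2094 with DESeq2's own test, 2668 and 2798 without the filter, and 3382 and 3655 with the 4 libraries alone. With the replicate block they were 2699 and 2596; same-numbered TAD1m and TAD2m libraries did not deviate together (correlation -0.0448), and over all pairs of groups the correlation ran from -0.204 to 0.354. Leaving out 1 library gave 1795 to 1950 higher and 1922 to 1959 lower genes, with 1822 higher without TAD1m replicate 1 and 1795 without TAD2m replicate 1. Scaling to the total count gave 3339 and 2269. Against the vector, TAD1m gave 2086 to 2761 higher and 1593 to 2467 lower genes with 1 library left out. A block with crossed numbers for TAD2m and vector (correlation -0.151), fitted on the libraries of those groups alone, gave 4232 higher and 4337 lower genes. All 10 libraries without a block gave 3758 and 3651 for TAD2m against the vector. The part of the block cannot be told apart from that of the libraries left out.

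Of the named genes, 9 changed sides of the threshold: Ctso, Def6, Etnk1, Fads6, Ogdhl, Pcyt2, Sgpl1, Trp53 and Usp7. Pcyt2 stayed called with the 4 libraries alone, total count scaling and counts rounded down, and was lost under the other settings, with an adjusted p of up to 0.276 without TAD1m replicate 2. Where an alternative leaves 1 library in a group, that library is assumed to vary like the other groups. With 2 libraries a group, small differences and genes under a few CPM are the least certain.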
